A study of Rattus norvegicus with 20 samples.

Results

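A set of 981 autosomal CpG island regions of the rat genome that were highly methylated in normal mammary gland, and that held their place within the methylation range of the array in mammary carcinomas, is described here. They made up 7.19% of the 13650 regions measured and 7.47% of the 13132 on autosomes. A region was a run of at least 3 array probes starting at most 500 bases apart. Its value was the mean log2 ratio of methylation-enriched to input signal, with the median of the array removed. A log2 ratio of an array depends on how strongly its enrichment worked, so each region was also given a linear position within its own array. On the unlogged ratio, position 0 was the density peak of all regions and position 1 the density peak of the highest 15% of regions. Regions were chosen by their position in both tissues: a region was taken where its position was over 0.5 in all 4 normal glands and where the mean over carcinomas minus the mean over normal glands was above -0.1. Of the 1240 autosomal regions over 0.5 in all 4 normal glands, 981 (79.1%) met the limit on the difference and 259 (20.9%) did not. The first are called kept islands below, and the second islands that were not kept.

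All rats were female F1 hybrids of Sprague-Dawley and Copenhagen; 4 samples were normal mammary gland and 16 were mammary carcinoma, with 1 array each. The treatments named for the rats were none, or whole-body gamma rays at 7 weeks of age, 4 Gy at 0.5 Gy per minute. The title calls the carcinomas radiation-induced, and the treatment of the rats that gave normal glands is not stated in those labels. DNA bound by a methyl-CpG-binding domain protein was labelled with Cy5 and total DNA of that tissue, the input, with Cy3 on all 20 arrays. The samples are numbered without naming animals, so a p-value here measures the spread between samples. For carcinomas 7 and 8 the sample code differed between the description and the deposited array, and each array was taken as the sample to which it was attached.

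CpG islands are stretches of DNA with a high density of CpG dinucleotides. Most of them lie at gene promoters and are free of methylation in normal tissue. A minority is methylated in normal cells, among them islands within genes or between genes, islands of germline genes and imprinted islands. Tumours commonly gain methylation at some islands and lose it over much of the remaining genome. A methyl-CpG-binding domain binds double-stranded DNA more strongly the more methylated CpGs it holds, so enrichment depends on CpG density as well as on methylation. In bulk tissue, fewer cells with a methylated island and less methylation of that island per cell cannot be told apart. The arrays name no genes, so islands are named by their coordinates in build rn4, and no gene, exon or promoter was assigned to them.

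How many islands were kept depended on where the upper peak was placed. The peak was read from the density of the log2 ratios and then unlogged. Read from the density of the unlogged ratios, the mean upper peak of the normal arrays moved from 4.66 to 3.99 on the log2 scale and that of the carcinoma arrays from 2.70 to 2.64. The mean position of the 981 islands was then 1.54 in normal glands and 1.04 in carcinomas, a difference of -0.508. Only 140 islands were chosen in that way, and 35 of them, 25% of the 140 and 3.57% of the 981, were among the kept islands. With the other settings tried the count lay between 682 and 1171. The word kept, and each position given below for a single island, therefore holds for the log-scale peak unless the other is named.

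In log2 ratio the 981 islands stood high above the remaining regions on every array, and the whole upper group stood lower in carcinomas. The mean over kept islands was 5.61, 3.82, 4.46 and 4.22 in normal glands 1 to 4. In carcinomas it was lowest at 1.95 in carcinoma 10, had a median of 2.73 and was highest at 3.49 in carcinoma 12. All 16 carcinomas lay below the lowest normal gland. No slide held both groups, so here and in every other contrast between them tissue cannot be told apart from slide. The group means were 4.53 ± 0.77 (SD, n = 4) and 2.65 ± 0.47 (SD, n = 16), a log2 difference of -1.87. The upper density peak of the arrays, which sets position 1, differed by nearly as much, from 4.66 ± 0.81 (SD, n = 4) to 2.70 ± 0.49 (SD, n = 16), a log2 difference of -1.95. The kept islands were themselves among the regions that set this peak, so their mean and the peak are not independent. The other autosomal regions, those not over 0.5 in all normal glands, averaged 0.04 ± 0.03 (SD, n = 4) and 0.07 ± 0.05 (SD, n = 16) in log2 ratio.

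**Figure D1:**
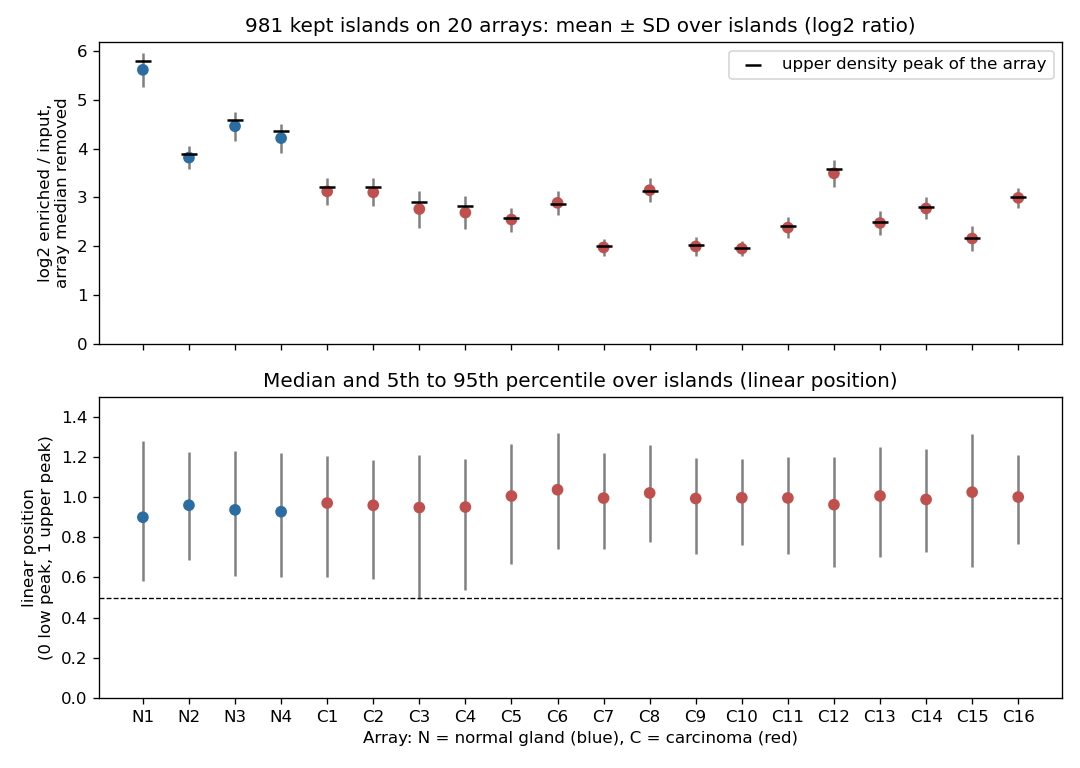
Kept islands on each of the 20 arrays, normal glands in blue and carcinomas in red. The upper panel plots the mean log2 ratio of enriched to input signal with bars of 1 SD over the 981 islands and the upper density peak of the array as a black dash, and the lower panel plots the median linear position with lines from the 5th to the 95th percentile and a dashed line at 0.5. The log2 means follow the peak, which these islands help to set, from 5.61 in normal gland 1 to 1.95 in carcinoma 10. The medians of position stay between 0.900 and 1.04.

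The choice of islands used this contrast, so counts of calls between carcinoma and normal gland are a description. With limma and Benjamini-Hochberg adjustment over all 13650 regions, 981 of 981 kept islands were lower in log2 ratio at an adjusted p under 0.05, where 23.6% of all regions were lower. None of the 981 was higher, where 11.2% of all regions were higher. In 928 of the 981 every carcinoma lay below every normal gland in log2 ratio, a separation that 15.5% of all regions had, and in 0 every carcinoma lay above, where 1.71% of all regions had that. After loess normalization within each array 801 islands were chosen, of which 0 were lower and 113 were higher in log2 ratio.

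In linear position the kept islands lay close to the upper peak in both tissues. Most of them were among the highest 15% of regions that set this peak, so the closeness is in part built into the scale. Their mean position was 0.910, 0.955, 0.931 and 0.921 in normal glands 1 to 4. In carcinomas it was lowest at 0.916 in carcinoma 3, had a median of 0.986 and was highest at 1.03 in carcinoma 6. The groups overlapped, with 11 of 16 carcinomas above all normal glands and 0 below all of them. The group means were 0.929 ± 0.0195 (SD, n = 4) and 0.978 ± 0.0336 (SD, n = 16), a difference of 0.0486. The limit on the difference had left out 259 islands whose mean difference was -0.201. A difference above 0 in the kept islands is thus in part built into the choice, and nothing is read from its sign. The limit bears in the same way on the overlap above and on the calls that follow. Scan day was read from the headers, and day 1 held carcinomas alone. Among arrays of scan day 2 (2 normal glands and 6 carcinomas) the difference was 0.0381, and among those of scan day 3 (2 and 8) it was 0.0690. By limma, 219 kept islands were higher in position at an adjusted p under 0.05, where 17.1% of all regions were higher, and 15 were lower, where 4.46% were lower. Without normal gland 1, the higher calls numbered 123. The lower calls were between 1 and 6 without any single normal gland, and 8 without carcinoma 13 or without carcinoma 14. In 62 kept islands every carcinoma lay above every normal gland, which 9.16% of all regions showed, and in 0 below, which 2.24% showed.

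A rank within the array needs no density peak, though the islands ranked here were chosen with one. It also falls where other regions rise, so a lower percentile does not by itself say that the kept islands fell. The median percentile of the kept islands among autosomal regions was 94.6, 94.6, 94.6 and 94.5 in normal glands 1 to 4, and 92.9, 94.4 and 94.9 as the lowest, median and highest carcinoma. The lowest value was that of carcinoma 15. Carcinomas both above and below the normal range occurred, 3 above all normal glands and 9 below all of them. A median of 98.6% of kept islands stayed among the highest 15% of regions of a carcinoma array, with 86.3% in carcinoma 15 as the lowest share and 100% in carcinoma 2 as the highest.

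The 981 islands differed among themselves in level. Their mean position in normal glands ran from 0.540 to 1.48 with a median of 0.928, and 362 lay over 1. In carcinomas the median was 0.983, with a range from 0.511 to 1.47, and 447 lay over 1. The difference between the groups had a median of 0.0305, was above 0 in 616 islands and below 0 in 365. The limit on the difference took out the islands furthest below 0, so this balance is in part built into the choice. The SD among carcinomas had a median of 0.0705 and reached 0.376, while the SD among normal glands had a median of 0.0642 and reached 0.238.

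The share kept changed with the starting level. It was 87.5% of 128 islands with a normal mean from 0.5 to 0.7, 95.1% of 347 from 0.7 to 0.9 and 89.9% of 395 from 0.9 to 1.1. It was 68.6% of 239 from 1.1 to 1.3 and 15.3% of 131 above 1.3. The median difference ran in the same order from 0.126 and 0.0762 through 0.00263 to -0.0655 and -0.192. The normal mean enters both the bins and the difference that set the limit, so part of this order is built into the choice, and nothing is read from it. The islands that were not kept started higher, at a mean of 1.24 ± 0.0378 (SD, n = 4), and lay at 1.04 ± 0.0656 (SD, n = 16) in carcinomas. In carcinomas their mean log2 ratio of 2.67 was close to the 2.65 of the kept islands, while in normal glands it was 4.92 against 4.53.

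**Figure D2:**
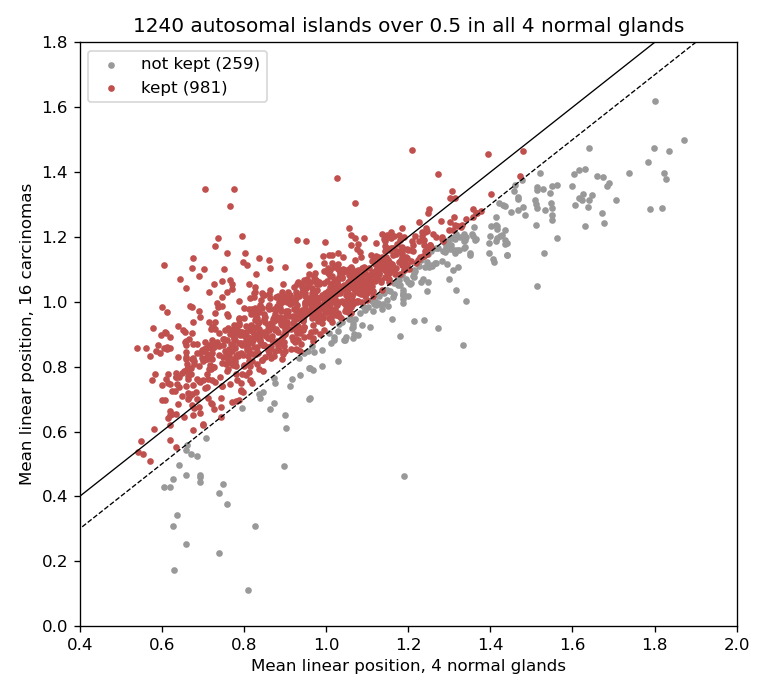
Mean linear position in 16 carcinomas against that in 4 normal glands for the 1240 autosomal islands over 0.5 in all normal glands, with the 981 kept islands in red and the other 259 in grey. The solid line marks equal positions and the dashed line a difference of -0.1, and of islands with a normal mean above 1.3 only 15.3% lie above the dashed line.

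The highest kept islands lay on chromosomes 1, 3 and 18. The island with the highest normal mean, chr1:79866711-79867363 (5 probes), had positions of 1.61, 1.55, 1.296 and 1.46 in the normal glands and a lowest, median and highest carcinoma of 1.32, 1.48 and 1.56. All of its carcinomas fell within the normal range. The island chr18:155447-155699 (4 probes) stood at 1.45, 1.43, 1.48 and 1.53 in normal glands and at 1.25, 1.40 and 1.496 in the lowest, median and highest carcinoma. Here the groups overlapped, and 11 of 16 carcinomas lay below all normal glands. The next were chr1:84224571-84224923, chr3:3748545-3748811 and chr18:27173616-27174128, with normal means of 1.40, 1.39 and 1.38 and carcinoma means of 1.33, 1.46 and 1.28.

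Some kept islands stood higher within the range of the carcinoma arrays. The 5 named here were picked for the largest differences, so groups that lie apart follow in part from that choice. The largest difference in position was at chr2:57403575-57404133 (5 probes), with 0.564, 0.880, 0.686 and 0.693 in normal glands and 0.675, 1.36 and 1.84 as the lowest, median and highest carcinoma. Its carcinomas spread widely, and 14 of 16 lay above all normal glands. The island chr7:142078381-142078890 (4 probes) had 0.668, 1.04, 0.821 and 0.574 in normal glands and 1.08, 1.38 and 1.67 in the lowest, median and highest carcinoma. The groups did not overlap there. The same separation held at chr5:141289199-141289611, where the means were 0.766 ± 0.114 (SD, n = 4) and 1.296 ± 0.125 (SD, n = 16), and at chr8:115701027-115701320, where they were 0.606 ± 0.0861 (SD, n = 4) and 1.11 ± 0.130 (SD, n = 16). The fifth, chr3:18517662-18517943, went from 0.736 ± 0.165 (SD, n = 4) to 1.20 ± 0.184 (SD, n = 16), with 14 of 16 carcinomas above all normal glands. In log2 ratio all 5 were lower in carcinomas, with differences from -1.10 to -1.28 beside the -1.87 of the kept islands as a whole. With the upper peak of the unlogged ratio their position differences were smaller, at 0.287, 0.192, 0.121, 0.194 and 0.0868 in the order named, and still above 0.

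The limits of the choice cut through a continuous range. Just inside the limit on the difference lay chr18:70754768-70754986, chr10:91542703-91544463 and chr8:45324968-45325278, with differences of -0.0999, -0.0990 and -0.0988. Just outside lay chr12:16829676-16829939, chr6:1397035-1397240 and chr10:75907047-75907174, with -0.100023, -0.100072 and -0.100164. The lowest normal gland was at 0.502, 0.503 and 0.504 in the islands just inside the limit of 0.5, which were chr6:129898908-129899197, chr3:12993741-12994173 and chr14:103655920-103656570. It was at 0.499, 0.498 and 0.497 just outside, at chr15:4926658-4927166, chr10:14477915-14478201 and chr2:5771135-5771950. The last of these had a carcinoma mean of 1.03, so an island left out by the normal limit could be as high in carcinomas as a kept one. The islands chr3:158341825-158342234 and chr7:11438551-11438827 completed the 5 kept islands with the most negative differences, each with a difference of -0.0983 or -0.0982 and with 16 of 16 carcinomas over 0.5.

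A mean above the limit does not say that every carcinoma was high. Of the 981 islands, 870 (88.7%) were over 0.5 in all 16 carcinomas, 65 in 15 and 21 in 14. The remaining 25 islands were over 0.5 in 8 to 13 carcinomas. Counted per tumour, the share of kept islands not over 0.5 had a median of 0.917% and ran from 0.102% (1 island, carcinoma 7) to 5.30% (52 islands, carcinoma 3). After loess normalization that median was 1.94%.

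These values at or under 0.5, called losses here, were uneven between tumours. Of 218 such values, carcinoma 3 held 52 (23.9%), carcinoma 4 held 36 and carcinoma 2 held 24. Carcinoma 3 also held 31 of the 65 islands that were lost in a single carcinoma, spread over 19 chromosomes together with its other losses. Positions under 0.2, the level of most islands of the array, were found in 9 islands of carcinoma 3, in 5 of carcinoma 4, in 2 of carcinoma 8 and in 1 of carcinoma 13. The input signal of the lost islands in carcinoma 3 stood at -0.17 (log2) from the normal mean, against -0.10 for its other kept islands. In carcinoma 4 the input stood at -0.50 for lost islands and at -0.30 for the others, and the widest gap was in carcinoma 1, at -0.61 and -0.22. The input of lost islands was the lower one in 10 carcinomas and the higher one in 6, as in carcinoma 15, at 0.06 and -0.09. Whether the input had a part in these losses was not tested.

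The 111 islands lost in at least 1 carcinoma started lower. Their median normal position was 0.743, against 0.958 in the 870 islands over 0.5 in every carcinoma. A loss was counted at the same 0.5 that all normal glands had to exceed, so islands near it cross it with a smaller change. Part of this order is thus built into the definition, and nothing is read from it. Their median length was 426 bases against 436, with a median of 5 probes in both.

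Of the 111 islands with a loss, 46 were lost in at least 2 carcinomas. In 14 carcinomas between 66.7% and 100% of the losses were shared with another carcinoma, in carcinoma 3 it was 40.4%, and the single loss of carcinoma 7 was not shared. Some of these shares rest on few islands, as in carcinoma 10 with 3 losses and carcinomas 5 and 6 with 4 each. Islands over 0.5 in at most 10 carcinomas numbered 4. At chr19:25046471-25046885 (4 probes), the most variable island among carcinomas, normal glands stood at 0.687, 0.553, 0.572 and 0.895 and carcinomas at 0.0629, 0.495 and 1.18 as lowest, median and highest. It was over 0.5 in 8 carcinomas, and 4 lay above and 9 below all normal glands, so the tumours fell on both sides of normal tissue. The other 3 islands over 0.5 in at most 10 carcinomas were chr10:35781338-35781814, over 0.5 in 9, chr2:170476398-170476790, over 0.5 in 9, and chr10:89520717-89521193, over 0.5 in 10. These 4 were singled out after their values had been seen. Their highest carcinomas reached 1.18, 0.867, 1.09 and 1.06 in the order named.

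The other 4 of the 5 most variable islands differed in how far their means stood apart. At chr1:82406633-82407065 (5 probes) normal glands had 0.691, 0.572, 0.580 and 0.751, and the lowest, median and highest carcinoma had 0.127, 0.673 and 1.22. At chr2:224955602-224956087 (3 probes) normal glands had 0.873, 0.774, 0.726 and 0.953, and the lowest, median and highest carcinoma had 0.277, 0.875 and 1.37. In both, 7 carcinomas lay above and 6 below all normal glands, and the mean differences were 0.0601 and 0.0145. The islands chr7:120045028-120045287 and chr19:25209329-25209762 had SDs of 0.348 and 0.337 among carcinomas. Their means were higher in carcinomas, by 0.460 and 0.319, with 13 and 12 carcinomas above all normal glands. Carcinoma 3 was the lowest of the 16 at 4 of these 5 most variable islands, and carcinoma 4 at the one on chromosome 19 from 25046471.

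The steadiest kept islands had SDs of 0.0249 to 0.0276 among carcinomas. At chr10:13079275-13080334 (13 probes) normal glands had 1.04, 1.03, 1.11 and 0.997, and carcinomas ran from 1.01 through a median of 1.05 to 1.09. All 16 carcinomas lay within the normal range. The island chr10:100514431-100514966 had means of 1.02 ± 0.0616 (SD, n = 4) and 0.970 ± 0.0269 (SD, n = 16). At chr14:46691399-46691795 they were 0.813 ± 0.0389 (SD, n = 4) and 0.889 ± 0.0276 (SD, n = 16), with 15 of 16 carcinomas above all normal glands.

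**Figure D3:**
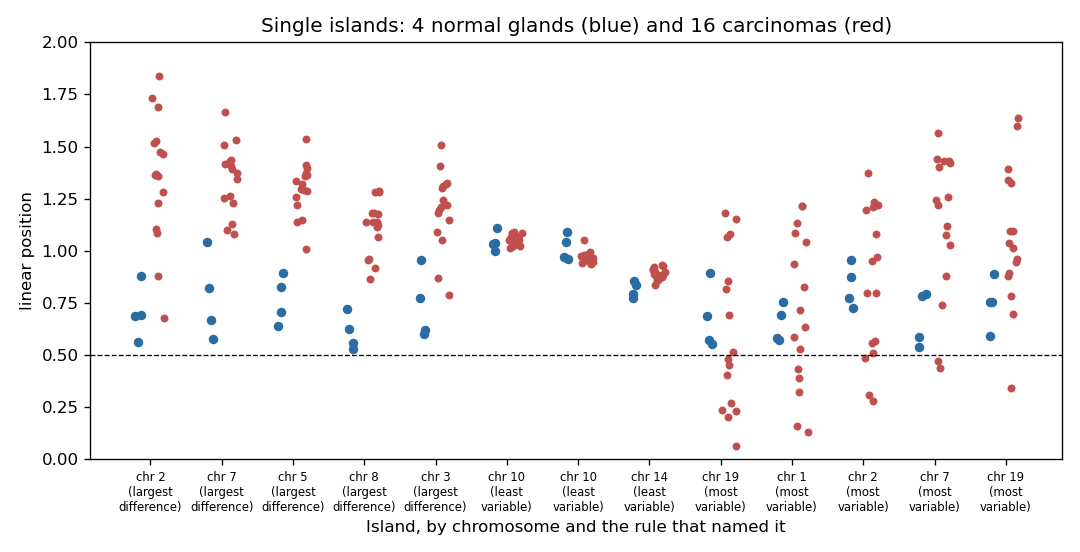
Linear position of single kept islands in each normal gland (blue, 4 points) and each carcinoma (red, 16 points), for the islands with the largest positive difference, the smallest and the largest SD among carcinomas, with a dashed line at 0.5. The points of the least variable islands lie close together, from 1.01 to 1.09 in the carcinomas of the first on chromosome 10, while the island on chromosome 19 at the left of the last set spreads from 0.0629 to 1.18.

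The pattern across islands was less alike among tumours than among normal glands, as it was over all regions. Over the 981 islands the position of the 6 pairs of normal glands correlated at r from 0.775 to 0.921, with a median of 0.830. That of the 120 pairs of carcinomas correlated at r from 0.40 to 0.839, with a median of 0.651. Over all regions the range was 0.966 to 0.986 for normal glands and 0.811 to 0.962 for carcinomas. A range widens with the number of pairs. The correlations over kept islands are descriptions across islands of a narrow range of level, which are not independent of each other, and the arrays of a pair share probes.

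Each array was also judged by a choice that did not use it. The islands were chosen again without that array, and the share over 0.5 in the array left out was taken. In normal glands it was at least 96.1%, had a median of 97.4% and reached 99.9%. In carcinomas it was 94.1% in carcinoma 3, had a median of 98.9% and reached 99.7%. Of all autosomal regions, 10.1% to 11.3% were over 0.5 in a normal gland and 11.4% to 23.5% in a carcinoma. The shares of the chosen islands lay far above those of autosomal regions at large on every array. Autosomal regions had a median mean position of 0.00835 in normal glands and 0.0332 in carcinomas. This gap was therefore largely set by choosing islands that were high on the other arrays, and it does not bear on the word kept.

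The scan day is a contrast that the choice did not use. Between the 8 carcinomas of scan day 3 and the 6 of scan day 2, limma called 0 kept islands in log2 ratio and 0 in position at an adjusted p under 0.05, as it did over all regions (0%). At an unadjusted p under 0.05 it gave 0 kept islands in log2 ratio, where 0.799% of all regions passed, and 48 in position, where 2.4% passed.

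The input channel gave no calls either. By limma, 0 kept islands were lower and 0 higher in input signal in carcinomas at an adjusted p under 0.05, as over all regions (0%). At an unadjusted p under 0.05 there were 245 of the 981, where 17.4% of all regions passed. The mean input over kept islands, relative to the median of the array, had a log2 value of -0.11 ± 0.05 (SD, n = 4) among normal glands and of -0.20 ± 0.10 (SD, n = 16) among carcinomas. The other autosomal regions stood at -0.11 ± 0.02 (SD, n = 4) and -0.19 ± 0.09 (SD, n = 16). Both sets thus differed between the groups by a similar amount, with overlapping carcinomas. The islands that were not kept stood higher and without such a difference, at 0.09 ± 0.07 (SD, n = 4) and 0.09 ± 0.10 (SD, n = 16). Whether the input had a part in which islands were kept was not tested. Enriched signal was well above background for at least 95.7% of the probes of kept islands on every carcinoma array and at least 99.4% on every normal array.

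Most probes within the kept islands were over 0.5, which follows in part from choosing islands by the mean of their probes. In the mean of the normal glands all probes were over 0.5 in 741 of 981 islands (75.5%), and in the mean of the carcinomas in 894 (91.1%). For the islands that were not kept the shares were 91.1% and 87.3% in the same order. Of the other autosomal regions, 0.0841% had all probes over 0.5 in the mean of the normal glands. Of the 5823 probes of kept islands, 94.3% were over 0.5 in normal glands and 97.8% in carcinomas. The probes over 0.5 did not outnumber the others in 7 islands in the mean of the normal glands and in 1 in the mean of the carcinomas. The latter was chr18:28481381-28481806, named after its values had been seen. Its 4 normal glands stood at 0.571, 0.625, 0.556 and 0.788 and its lowest, median and highest carcinoma at 0.182, 0.574 and 0.886.

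The outermost probes tended to be lower than the inner ones. For the 688 kept islands with at least 5 probes, the mean of the first and the last probe minus the mean of the others gave a log2 contrast of -0.19 ± 0.06 (SD, n = 4) among normal glands and of -0.10 ± 0.04 (SD, n = 16) among carcinomas. Tested against 0 with limma, with adjustment over the 9428 regions of that size, the edge was lower in 244 kept islands of normal glands, where 43.6% of all such regions were lower. It was higher in 77, where 16.1% were higher. In carcinomas it was lower in 317 (38.7% of all such regions) and higher in 163 (28.4%). In normal glands the share of kept islands with a lower edge, 35.5%, stood under that of all such regions, and in carcinomas, at 46.1%, above it. The islands that were not kept showed the same order, at 38.9% and 50.3%. The tests on 4 normal glands and on 16 carcinomas differ in power, so their counts cannot be set against each other. The higher calls in normal glands numbered 43 without normal gland 2, 36 without normal gland 3 and 47 without normal gland 4.

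The largest edge contrasts had either sign. At chr6:138190200-138191953 (18 probes) the edge stood at -1.95 (SE 0.19, limma adjusted p = 0.000608) in normal glands and at -0.89 (SE 0.06, limma adjusted p = 8.07e-10) in carcinomas, below 0 on all 20 arrays. The islands chr8:46226942-46227401 and chr16:17588565-17588951 followed with -1.76 and -1.50 in normal glands and -0.73 and -0.74 in carcinomas. At chr5:57571181-57571564 (6 probes) the inner probes were the lower ones, with an edge contrast of 1.61 (SE 0.10, limma adjusted p = 0.000407) in normal glands and 1.19 (SE 0.07, limma adjusted p = 5.78e-10) in carcinomas, above 0 on all 20 arrays. The other islands with a high edge, chr5:169348300-169348783 and chr5:146798397-146798855, had contrasts of 0.93 and 0.90 in normal glands and 0.43 and 0.15 in carcinomas, and the last did not pass the test in carcinomas (limma adjusted p = 0.212).

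**Figure D4:**
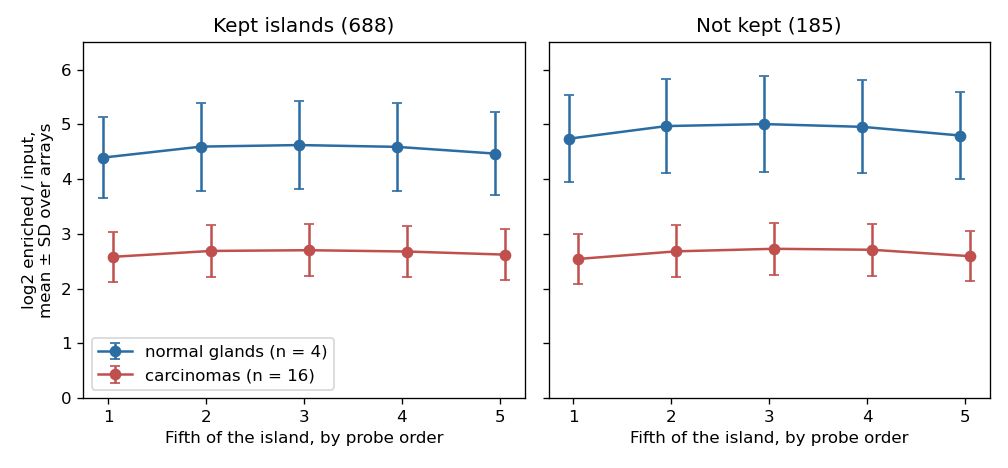
Mean log2 ratio along the island in 5 bins of probe order, with bars of 1 SD over arrays, for the 688 kept islands of at least 5 probes (left) and the 185 of the islands that were not kept (right), normal glands in blue and carcinomas in red. In kept islands the normal means run from 4.40 in the outer bin to 4.62 in the middle and the carcinoma means from 2.58 to 2.70, a flat profile beside the distance between the groups.

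Kept islands were short. Their median length was 435 bases with 5 probes, against 605 bases and 6 probes in the other autosomal regions that were not over 0.5 in all normal glands. The islands that were not kept had a median of 433 bases, close to the kept ones. Islands of 15 or more probes made up 2.34% of the kept islands and 3.35% of the other autosomal regions. The longest by probe number, chr9:32921179-32923334 (25 probes), had 1.17, 1.21, 1.28 and 1.08 in normal glands and 1.11, 1.17 and 1.26 as lowest, median and highest carcinoma, with no carcinoma outside the normal range. The next, chr5:58917818-58919814 (23 probes), had means of 1.07 and 1.20 with 12 of 16 carcinomas above all normal glands; without normal gland 4 its difference went from 0.126 to 0.0548. The islands chr6:132294171-132296380 (21 probes), chr12:15137907-15139904 and chr16:19019779-19021462 (19 probes each) had normal means of 1.21, 1.07 and 1.13 and carcinoma means of 1.17, 1.06 and 1.12.

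The kept islands were spread over all 20 autosomes in unequal shares. Chromosome 20 had the highest, 54 of 395 regions (13.7%), then chromosome 12 with 58 of 491 (11.8%), chromosome 18 with 41 of 391 (10.5%), chromosome 16 with 43 of 419 (10.3%) and chromosome 7 with 94 of 937 (10.0%). Chromosome 13 had the lowest, 11 of 354 (3.11%). As a share of the islands over 0.5 in all normal glands, those kept ran from 61.1% on chromosome 13 to 90.9% on chromosome 15. That share was 74.0% on chromosome 20 and 73.4% on chromosome 12, under the 79.1% of all autosomes. These are counts of regions without a test. In windows of 5 megabases, 302 of 512 windows held a kept island, and 64 windows with at least 5 held 526 of the 981. The fullest were chromosome 7 from 10000001 to 15000000, with 29 kept islands among 146 regions, and chromosome 1 from 75000001 to 80000000, with 25 among 101.

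**Figure D5:**
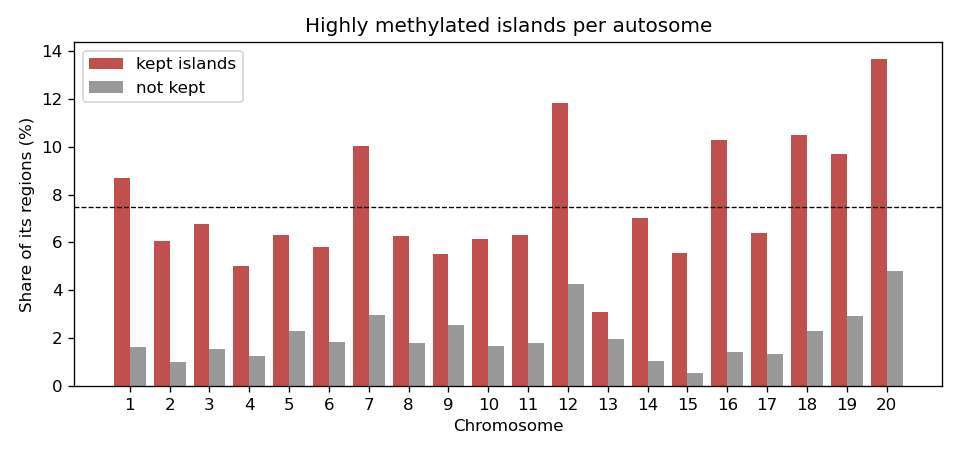
Share of the regions of each autosome that were kept islands (red) or islands over 0.5 in all normal glands that were not kept (grey), in percent, with a dashed line at the kept share of all autosomal regions, 7.47%. Chromosomes 20 and 12 stand highest with 13.7% and 11.8%, and chromosome 13 lowest with 3.11%.

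Most kept islands had a region of another kind as their nearest neighbour. The nearest other region was a kept island for 15.9% of them, for 18.5% of the islands that were not kept and for 6.79% of the other autosomal regions. Where that nearest region lay within 5 kb, it was a kept island for 53 of 214 (24.8%), 14 of 52 (26.9%) and 144 of 2827 (5.09%) in the same order. The nearest region was under 0.2 in the normal mean for 69.9% of kept islands and for 86.7% of the other regions. Of the kept islands, 14.1% lay within 5 megabases of the last probe of the chromosome, against 10.705% of the other regions.

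Counted in genome order, 749 kept islands had no kept island as the next region on either side, and the others formed 83 pairs, 15 runs of 3, 3 runs of 5 and 1 run of 6. The run of 6 lay at chr10:20939773-21461768. Its mean position was 0.959, 1.06, 1.11 and 0.922 in normal glands and 0.925, 1.03 and 1.08 as lowest, median and highest carcinoma, and 0 of its 96 carcinoma values were at or under 0.5. The run of 5 at chr3:159751498-160026012 had 1.06, 1.05, 1.05 and 1.05 in normal glands and 0.956, 1.05 and 1.12 in carcinomas. All 16 carcinomas of the run of 6 lay within the normal range, while those of the run on chromosome 3 reached below and above it. At chr14:7229397-8031067, also a run of 5, 2 of 80 carcinoma values were at or under 0.5, and the means were 0.908 ± 0.0759 (SD, n = 4) and 0.891 ± 0.0761 (SD, n = 16). The run of 5 at chr18:125453-155699, named after its values had been seen, covered 30247 bases. Its islands had normal means from 0.634 to 1.47 and carcinoma means from 0.655 to 1.39, so neighbours within it kept different levels.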

How the data were processed

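Scanner output came from Agilent Feature Extraction 10.7.3.1, per the submitters' processing notes and the file headers, with probe coordinates in rn4. The processed signals deposited by the authors are intensities after background subtraction and dye normalization per channel. The deposited log ratio is the log10 of Cy5 over Cy3, and the authors' processed values are log2 ratios for 91897 probes, which differed from the scanner ratios by at most 7.94e-07 and served as an alternative.

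Here the log2 ratio of the processed signals was taken for 93024 probes, without 1565 control spots. The 187 values marked as outliers were set to missing, and no loess or quantile step was applied. Of 16465 runs, 13650 were long enough, and their median was 6 probes over 581 bases. Density peaks came from the density function of R 4.3.3 with its default bandwidth. Limma 3.58.1 with Benjamini-Hochberg adjustment ran over all regions and was tested on simulated data. The number of arrays limits the precision, above all the 4 normal glands. Median raw signals lay between 73 and 136 units for input and between 62 and 128.5 for the enriched channel.

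The 10 slides and 3 scan days came from the headers, and no slide held both groups. Islands named were those with the 5 highest normal means, the 5 largest rises and falls, the 5 largest and 3 smallest SDs among carcinomas and the 5 highest probe numbers. Added to these were the 3 nearest to each limit on either side, the 3 longest runs and the 3 largest edge contrasts of each sign. The kept islands, the lists and the tests were chosen with earlier results of these data known. Alternatives covered the dim-probe filter, background correction, normalization, region size, density peak, thresholds, blocks, array weights and each array left out. No sequences or gene names were used. Other work used version 1.17.8 of data.table, Python 3.11.15, numpy 2.4.6, pandas 2.3.3 and matplotlib 3.10.9.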

Additional observations from a re-analysis of the deposited data

Results flagged for a closer look

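In normal tissue, 55 sets of 4 values were tested for a single gland far from the other 3 (Dixon's test), and 5 were marked; chance marks about 5% of sets. The median percentile of the kept islands was 94.5 in normal gland 4, below 94.6 in the others. The low density peak was -0.69 in normal gland 1, where the next lowest was -0.44 on the log2 scale. The island on chromosome 16 from 17588565 had a position of 0.818 in normal gland 3, above the next highest of 0.659. The island on chromosome 18 from 27173616 had 1.53 in normal gland 1, above 1.33. The island on chromosome 2 from 5771135, just outside the limit of 0.5, had 0.779 in normal gland 2, above 0.535.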

How the results depend on the processing

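The count of 981 kept islands and the reading of the levels as kept rest on the log-scale density peak, and the 4 normal glands and the narrow range of carcinoma arrays limit all comparisons. With peaks of the unlogged ratio the count was 140, with 134 lower in log2 ratio, 12 higher and 0 lower in position, and the same 981 islands had a position difference of -0.508. Of 28 named islands set on that scale, 0 had a difference within 1 SD among carcinomas of its main value, and 21 kept the sign; chromosome 1 from 79866711 went from -0.0147 to -0.887 and chromosome 10 from 13079275 from 0.00820 to -0.627. The island on chromosome 10 thus turned in sign, while that on chromosome 1 was below 0 on both scales. Others that turned include chromosome 14 from 46691399, from 0.0762 to -0.411, and chromosome 5 from 58917818, from 0.126 to -0.505. After normexp the position difference was 0.273, with 29 higher and 0 lower calls in position. After loess the median share of kept islands not over 0.5 per carcinoma was 1.94% in place of 0.917%, and the position difference was 0.119, with 0 lower and 113 higher calls in log2 ratio and 31 higher and 0 lower in position. With at least 5 probes there were 133 higher calls in position. Lower calls in position were 9 with the top 10%, 32 with the top 20%, 9 with slide as a random block and 88 with array weights. At an adjusted p under 0.01, 111 islands were higher and 2 lower in position. Leaving out each array in turn gave counts of kept islands from 965 to 1038, higher calls in position from 123 to 245, lower calls from 1 to 20, and higher edges in normal glands from 36 to 57. With 2 edge probes at each end the edge was lower in 102 and higher in 44 islands of normal glands, and lower in 125 and higher in 68 of carcinomas; as linear position, 136 were higher in normal glands. The held-out share in normal glands was 99.6% over 0.4 and 92.8% over 0.6. Same-numbered normal glands and carcinomas deviated with correlations of 0.329, -0.285, 0.109 and -0.0408, so the numbers were not taken to pair samples. With the replicate block, 5 kept islands were higher and 0 lower in position, and in input signal 409 were lower and 138 higher. The causes were not tested. The other counts stayed within 1.5 times their value, with the centring on the low peak and the percentiles added after the data were seen.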

Other observations

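The choice was limited to autosomes. On the X chromosome, which in female mammals carries methylated islands on its inactive copy, 161 of 342 regions were over 0.5 in all 4 normal glands, and 139 of these would have met the limit on the difference. Of 176 regions on unplaced contigs, 23 were over 0.5 in all normal glands and 19 would have met it.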
